A study of Mus musculus with 18 samples.

Results

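Control spinal cord was compared between postnatal days 2 and 6 (P2 and P6) to describe how gene expression changes as the young cord matures. Described here are 8655 gene loci out of 58570 in the deposited tables: loci named by a single gene symbol, with an FPKM (fragments scaled to transcript length and sequencing depth) of 5 or more at one or both ages, and measured without a warning from the authors' software at both. Of these loci, 7781 reached FPKM 5 at both ages, 419 at P2 only and 455 at P6 only. The change of each gene is given as log2((P6 FPKM + 1)/(P2 FPKM + 1)), called the log2 ratio below, so that 1 is a 2-fold higher level at P6 on that scale. Counts of 2-fold change use that scale unless another setting is named. At the edge of the floor, the higher of the 2 levels was 5.001 for both Fmnl1 and Btg1, just inside it, and 4.99999 for Gins2, just outside it.

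RNA came from whole spinal cords of the SMNdelta7 strain, a mouse model of spinal muscular atrophy (SMA) with a defective survival motor neuron gene and human SMN transgenes. The controls were heterozygotes, so they are not wild type: as background, mice of this kind keep 1 working copy of Smn1, and the labels used here do not say which transgene copies they carried. Each of the 2 control groups stands for 3 labelled libraries, out of 18 in the series, and the tables hold 1 value per group with the authors' lower and upper bound in place of values per library. Control cords at P10 and cords of homozygote (SMA) pups at P2 and P6, also 3 libraries each, are quoted only for levels set side by side. Every group is bulk tissue, in which fewer cells of a type and less RNA per cell cannot be told apart.

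During the first postnatal week the rodent cord already holds its neurons, and the main late arrival is glial. Oligodendrocyte precursors leave the cell cycle, spread flat membrane around axons and compact it with myelin proteins such as Mbp and with galactolipids and cholesterol. In the same days astrocytes take up potassium, glutamate and water transport, growth cones are replaced by synapses, and receptors and channels change from embryonic to mature subunits.

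The regulatory sequences of 4 myelin genes are shown first because these genes were at least 2-fold higher at P6 or passed the test described below, and because their promoter windows hold the letters CTGGCAC or CTGGTAC, forms of the sequence bound by Myrf, the transcription factor that switches on myelin genes. Promoter sequences are RefSeq's for GRCm38.p6, the 250 bases before each start site, and bases inside annotated exons were removed. Mag, chr7:30914874-30915113 on the minus strand, encodes myelin-associated glycoprotein on the inner myelin membrane. Mog, chr17:37023399-37023648 on the minus strand, encodes a glycoprotein of the outer myelin surface. Cnp, chr11:100574689-100574903 on the plus strand, encodes an enzyme that keeps cytoplasm channels open in myelin. Nipal4, chr11:46166509-46166609 on the minus strand, encodes a membrane protein of the NIPA magnesium transporter family. Capitals mark a match on one or the other strand.
Mag: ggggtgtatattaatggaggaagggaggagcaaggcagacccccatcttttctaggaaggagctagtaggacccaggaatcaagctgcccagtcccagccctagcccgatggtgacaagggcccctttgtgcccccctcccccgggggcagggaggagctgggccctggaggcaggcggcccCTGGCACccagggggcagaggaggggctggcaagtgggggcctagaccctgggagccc
Mog: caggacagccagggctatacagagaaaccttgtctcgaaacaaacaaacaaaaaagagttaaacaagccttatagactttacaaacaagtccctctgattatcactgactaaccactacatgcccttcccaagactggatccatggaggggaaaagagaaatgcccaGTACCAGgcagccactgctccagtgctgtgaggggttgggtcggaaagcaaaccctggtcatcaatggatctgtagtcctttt
Cnp: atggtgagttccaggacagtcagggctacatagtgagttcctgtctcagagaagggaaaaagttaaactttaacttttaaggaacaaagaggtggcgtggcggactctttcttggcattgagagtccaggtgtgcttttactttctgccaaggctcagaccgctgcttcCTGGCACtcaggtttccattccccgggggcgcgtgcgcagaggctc
Nipal4: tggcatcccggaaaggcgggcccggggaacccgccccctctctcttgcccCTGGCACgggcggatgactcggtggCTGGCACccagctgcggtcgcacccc

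Matches began 68 bases before the start site in Mag, 83 in Mog, 81 in Cnp, and 200 and 175 in Nipal4. Among the 29 myelin structure genes above the FPKM floor, 20 had a promoter window in the table, and 4 of the 20 held one of the sequences: Mag, Mog, Cnp and Prr18, an oligodendrocyte gene with a lower ratio. Nipal4 is on the list but below the floor, so it is not among the 20. Over all 27025 genes with a window the share was 6.79%. A gene can have several windows: the 20 myelin genes had 34 and all genes 32851. By window, 14.7% of the myelin ones and 5.93% of all held CTGGCAC or CTGGTAC. Windows differ in length where exon bases were removed, and those printed above have 101 to 250 bases. The sequence ACAAAG, bound by Sox factors such as Sox10, was present in 6 of the 20 myelin genes and in 18.6% of all genes, counted on both strands. By window it was present in 23.5% of the myelin ones and 16.5% of all. It can share letters with the first motif where CTGGCAC is followed by AAAG. In the neurogenesis genes, described below, CTGGCAC or CTGGTAC was present in 1 of 23 genes with a window, and ACAAAG in 4. A match is a description of the letters and not a measured binding site.

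Most of the transcriptome stayed close to its P2 level. The median log2 ratio of the members was -0.06, with quartiles of -0.20 and 0.10, and 92.8% of members lay within 0.5 of 0. A ratio below 0 was more common than one above: 60.7% of members were below 0 and 39.3% above. Centred on the members' own median, 50.0% were above. At least 2-fold higher levels at P6 were found for 105 members (1.21%) and at least 2-fold lower levels for 60 (0.693%). Of these 165, 97 were small RNAs, mainly predicted microRNAs and small nucleolar RNAs, and 93 of the 97 rested on fewer than 10 estimated fragments in both groups. Among 7665 protein-coding members, 41 (0.535%) were at least 2-fold higher and 10 (0.13%) at least 2-fold lower.

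Change was tested with a two-sided z test on log2(P6 FPKM/P2 FPKM), with no 1 added. The standard error (SE) was taken from the authors' interval, and p-values were adjusted by Benjamini-Hochberg over all 19622 loci tested. Printed SEs come from this test, while the ratios printed with them have 1 added. For Mal the tested ratio was 2.34 and the log2 ratio 2.16. The test called 22 loci at an adjusted p under 0.05 (0.112% of those tested), 20 higher (0.102%) and 2 lower (0.0102%) at P6. Of the 8579 members tested 17 were called (0.198%), 15 of them higher (0.175%). "Called" and "passed" refer to this threshold. The 9 protein-coding loci among them were all higher. They included Gsn, Cldn11, Mal, Mbp, Mag, Ermn and Nipal4 of the myelin structure list and Ugt8a of the myelin lipid list. Another call was a locus that joins Mobp with a predicted gene, and 2 were unnamed loci. The other 10 calls, including both lower ones, were predicted small RNAs with at most 1.83 estimated fragments in either group. Unadjusted p was under 0.05 for 125 loci, 102 higher and 23 lower. The authors' intervals failed to overlap at 54 loci (0.275%), 44 higher (0.224%) and 10 lower (0.051%). Among them were 25 protein-coding loci, 24 of them higher at P6. Outside the myelin genes, the highest ratios of protein-coding members were those of Gpr37l1, an orphan receptor of glia, at 4.52 and 23 FPKM with intervals that did not overlap, Pdlim2 at 1.12 and 7.91, and Adamts4, a protease of the matrix, at 1.03 and 7.75. None of these 3 was called.

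**Figure D1:**
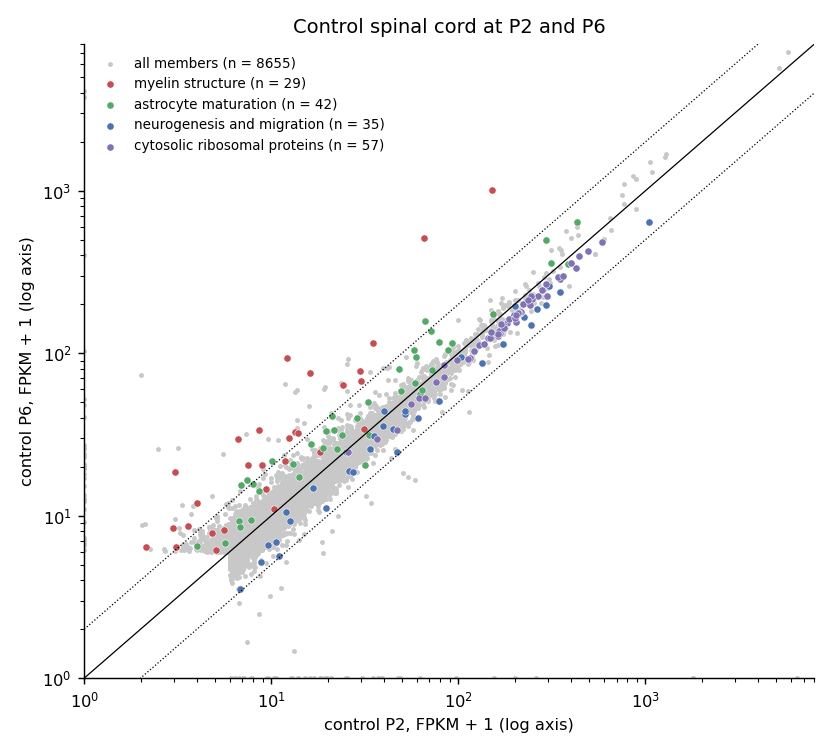
Control P2 level (x) against control P6 level (y), each point 1 of the 8655 members as FPKM + 1 on log axes, with 4 gene lists in colour; the solid line is equality and the dotted lines are 2-fold. Most myelin genes (red) stand above the upper dotted line, up to Mbp, most astrocyte genes lie between equality and the upper dotted line, and most neurogenesis and ribosomal protein genes lie just below equality.

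The protein-coding genes called higher at P6 were all genes of the myelin lists. Other protein-coding members, such as Gpr37l1, were at least 2-fold higher without being called. All 29 myelin structure genes above the floor had a higher value at P6, against 39.3% of all members, and 21 of them were at least 2-fold higher; the median log2 ratio was 1.29. Since 9 of the 29 passed the floor through P6 alone, the 20 that passed at both ages are the fairer description, with a median of 1.34. The 12 list genes under the floor were also all higher at P6. Summed over the 29 genes, FPKM came to 521, 2374 and 9019 at the 3 ages in turn.

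Mbp, the basic protein that seals the cytoplasmic faces of compact myelin, was 149.6 FPKM at P2, with an interval of 80.5 to 219, and 1012 at P6, with an interval of 292 to 1732. The intervals did not overlap, and Mbp rose by a log2 ratio of 2.75 ± 0.62. Mag, on chromosome 7 from 30899176 to 30914873, was 11.1 at P2 and 92.4 at P6 (log2 ratio 2.95 ± 0.61, called). Both were among the 15 highest ratios of protein-coding members. By P10 the levels were 4281 for Mbp and 315 for Mag, and the P10 interval of Mbp reached down to 0.

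Cldn11, the claudin of the tight junctions between myelin layers, was 15.2 FPKM at P2 and 74.2 at P6 (log2 ratio 2.22 ± 0.46, called). Mal, a proteolipid that sorts lipid rafts to the myelin membrane, was 5.62 and 28.5 (2.16 ± 0.49, called). Gsn, the actin-severing protein gelsolin, was 7.56 and 32.5 (1.97 ± 0.49, called). In each of these 3 genes the P6 interval lay wholly above the P2 interval. Ermn, a cytoskeletal protein of late oligodendrocytes, and Nipal4 rose from lower levels, 0.438 to 3.93 FPKM and 0.315 to 3.05 FPKM, which kept them under the floor of 5. The locus that joins Mobp, a myelin basic protein relative, with a predicted gene was 6.0 at P2 and 87.3 at P6, and the reads of its genes cannot be told apart.

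Several myelin genes with high ratios did not pass the test. Mog was 2.07 FPKM at P2 and 17.4 at P6, a log2 ratio of 2.59 with an SE of 1.68, and its intervals overlapped. Cnp was 33.8 and 114 (1.72 ± 0.78), again with overlapping intervals. Tspan2, Myrf, Tmem88b, Gjb1 and Pmp22 had intervals that did not overlap, with log2 ratios of 1.22 to 1.58, but were not called. Myrf itself was 2.59 FPKM at P2 and 7.62 at P6. At the low end of the list were Qdpr, at 9.29 and 10 FPKM, and Tppp3, at 30.4 and 33.3. Cryab, a small heat shock protein, was 4.60 FPKM at P2, 7.16 at P6 and 30.9 by P10, and Apod, a lipid carrier, was 17.1, 23.6 and 86.1.

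**Figure D2:**
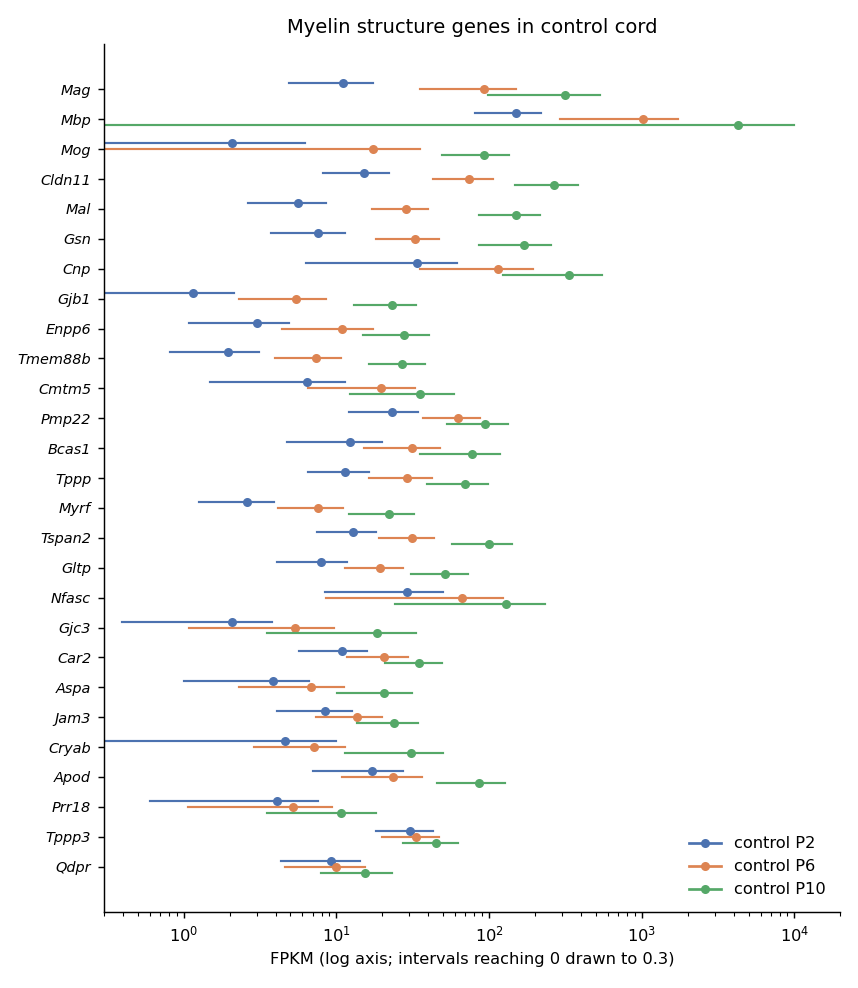
FPKM of 27 of the 29 myelin structure genes (rows, sorted by P6 to P2 ratio) in control cord at P2, P6 and P10 on a log axis; points are the authors' group values and lines their intervals. The P2 and P6 intervals are apart for genes such as Mag, Cldn11, Mal and Gsn, overlap for Mog, Cnp and Nfasc, and nearly coincide for Qdpr and Tppp3.

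The stage before myelin showed smaller differences. Of 27 oligodendrocyte precursor and differentiation genes, 17 passed the floor, with a median log2 ratio of 0.55, and 16 were higher at P6; none was called. The 15 that passed at both ages had a median of 0.45. Gpr17, a receptor marking precursors committed to differentiate, was 14.0 FPKM at P2 and 36.2 at P6 with intervals that did not overlap (1.31 ± 0.44, not called). Sirt2, a tubulin deacetylase abundant in oligodendrocytes, was 24.3 and 57.2. Transcription factors of the lineage had lower ratios: Olig2 was 9.91 and 17.6, Sox10 6.09 and 9.78, and Nkx2-2 3.03 and 5.50. Markers of the dividing precursor had smaller differences, toward higher values at P6, and were not called. Cspg4 was 3.43 and 4.31, and the locus that joins Pdgfra with a microRNA was 18.1 and 22.6. Above the floor the single list gene with a lower value was Cacng4, at 16.1 and 11.0.

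Within myelin lipid synthesis 1 enzyme was called. Ugt8a, the galactosyltransferase that makes galactocerebroside, was 10.8 FPKM at P2 and 63.9 at P6 and rose by 2.45 ± 0.51 on the log2 scale. Fa2h, which hydroxylates the fatty acid of that lipid, was 2.04 and 8.51. Elovl7, an elongase, was 2.79 and 10.5, and Scd1, a desaturase, was 12.8 and 33.4. These 4 genes had intervals that did not overlap, though only Ugt8a was called. Fasn, the fatty acid synthase, was 38.7 and 38.5, and B4galnt1 and St8sia1, enzymes of complex gangliosides, were 16.6 and 13.6, and 7.68 and 6.68. Over the 20 of 24 genes that passed, the median was 0.37 and 17 were higher; 4, Fa2h and Elovl7 among them, passed through P6 alone, and the 16 that passed at both ages had a median of 0.21.

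Cholesterol enzymes, which supply the other main myelin lipid, were close to level over the same days. The 22 of 25 genes that passed had a median log2 ratio of 0.07, with 12 higher and 10 lower, none at least 2-fold and none called. Hmgcs1, the most abundant, was 131, 149 and 294 FPKM at P2, P6 and P10. Scap, the sterol sensor, had the lowest ratio, at 16.3 and 11.7. Summed FPKM of the 22 genes was 575, 596 and 991 at P2, P6 and P10.

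**Figure D3:**
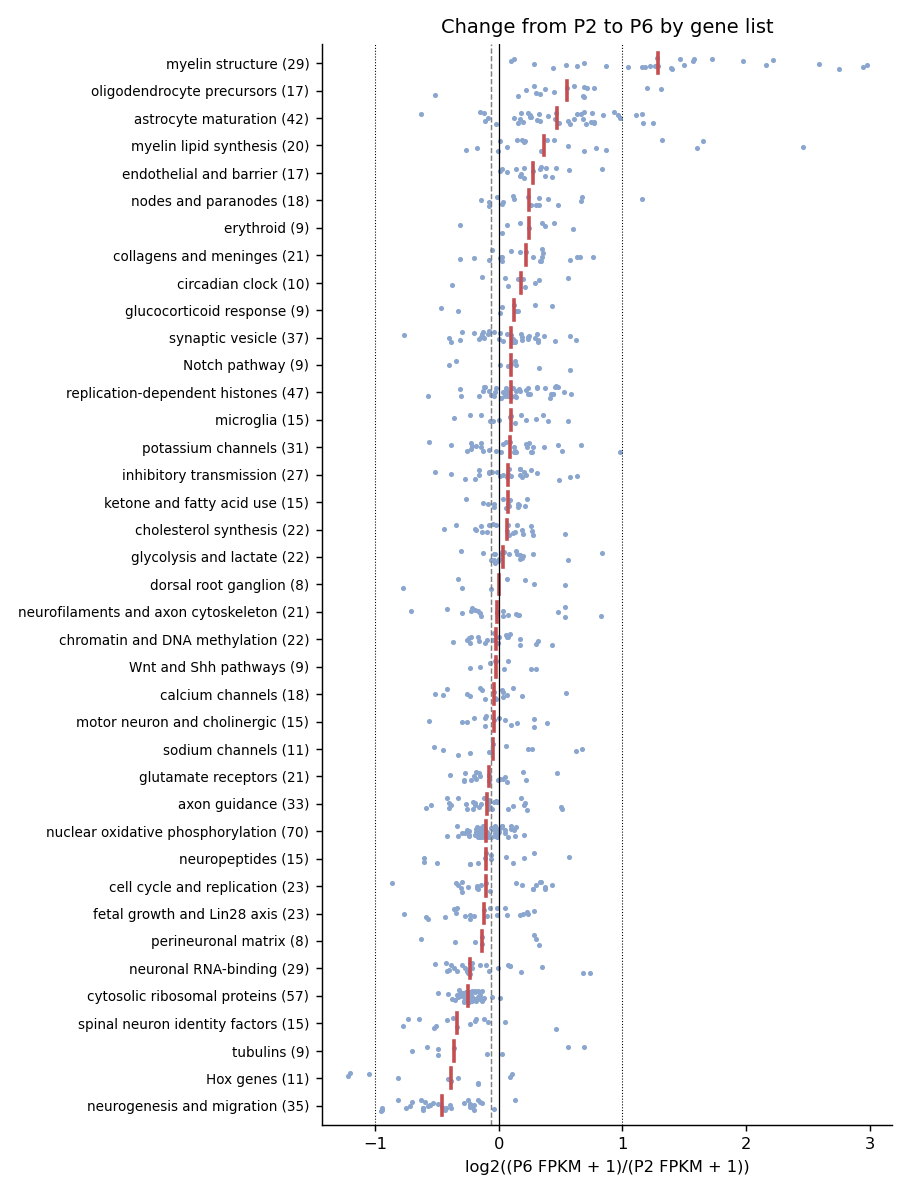
Log2 ratio of every member above the FPKM floor (points) in each gene list with 8 or more such members, sex-linked genes apart; the number follows the name. Red bars are list medians, the dashed line is the median of all members and dotted lines are 2-fold. Myelin structure lies highest at 1.29 and neurogenesis lowest at -0.46, while most lists straddle 0.

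Astrocyte genes were the next list with mostly higher values. Of 52 genes 42 passed, 36 of them higher at P6, with a median of 0.47; 4 were at least 2-fold higher and none was called. Gfap, the intermediate filament of astrocytes, whose locus overlaps another one, was 65.6 FPKM at P2 and 157 at P6 (1.25 ± 0.64), with intervals that overlapped. Ntsr2, a neurotensin receptor of astrocytes, was 5.88 and 14.4, S100b, a calcium-binding protein, 6.44 and 15.6, and Slc7a10, a serine transporter, 9.11 and 20.8. Genes of membrane transport were close behind. Aqp4, the water channel of endfeet, was 70.6 and 135, Kcnj10, the potassium channel Kir4.1, 6.94 and 14.7, and Slc1a2, the glutamate transporter GLT-1, 57.2 and 104. The lipid carrier Apoe was the most abundant, at 431 and 637. Not every astrocyte marker was higher to this extent. The locus that joins Aldh1l1 with a predicted gene was near level at 15.7 and 16.2. The locus that joins Glul with a microRNA was 71.0 and 82.7.

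The 4 genes of immature or radial astrocytes named here had lower values at P6, as did 60.7% of all members. Tnc, an extracellular glycoprotein of immature glia, was 30.7 FPKM at P2 and 19.6 at P6 (-0.63 ± 0.53). Fabp7, the brain lipid-binding protein of radial glia, was 383 and 353, Vim, their intermediate filament, 63.1 and 58.2, and Slc1a3, the early glutamate transporter GLAST, 61.3 and 55.1. The differences of Fabp7, Vim and Slc1a3 were smaller than their SEs, and none of the 4 genes was called. Their P10 levels were 11.1, 191, 39.9 and 43.5.

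Blood vessels and immune cells showed mostly small differences. In the endothelial list 17 of 35 genes passed and all 17 were higher at P6, by 0.01 to 0.84; 4 passed through P6 alone, and the median was 0.21 over the 13 that passed at both ages. Slc16a1, the transporter for lactate and ketone bodies, had the highest ratio, 12.7 and 23.4 FPKM, followed by Flt1 at 3.51 and 5.67 and Mfsd2a, the barrier's lipid transporter, at 9.21 and 13.1. Cldn5, the tight junction protein of brain vessels, was 18.9 and 24.9. Microglial genes had a median of 0.10 over 15 of 36 genes, from Tyrobp at 9.84 and 7.46 to P2ry12 at 11.2 and 15.0, with Apoe, shared with astrocytes, at the top. The complement genes C1qa, C1qb and C1qc were each within 0.15 of 0, and the complement list had a median of 0.00 over 5 of 17 genes. Clu had the highest ratio of that list, 0.96, and was not called. Of 18 pericyte and smooth muscle genes 3 passed; Rgs5, a pericyte signalling regulator, was 12 and 22.5, and Vtn and Notch3 were 15.1 and 14.4, and 5.19 and 5.23.

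Genes of neuron birth, migration and axon growth mostly had lower values at P6. Of 49 genes 35 passed, 34 of them lower at P6 against 60.7% of all members, with a median of -0.46. With 1 added to FPKM no gene of the list was 2-fold lower, and none was called. Below the floor 8 of 9 listed genes were lower too, and Neurog1 was at 0 at both ages. Dcx, the microtubule-binding protein of migrating neurons, had 46.0 FPKM at P2, 23.5 at P6 and 9.26 by P10 (-0.94 ± 0.75). Sox11, a transcription factor of newborn neurons, was 18.6, 10.2 and 5.01 (-0.81 ± 0.41), and its relative Sox4 was 26.4, 17.7 and 12.4. Dusp4, a phosphatase of the MAP kinase pathway, was 10 and 4.68, and Islr2, a membrane protein of growing axons, 5.84 and 2.56. Without the added 1, Dusp4 and Islr2 were more than 2-fold lower.

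Growth cone proteins lay in the same range at far higher levels. Gap43, the growth-associated protein under the growth cone membrane, was 244 FPKM at P2 and 149 at P6 (-0.71 ± 0.49). Basp1, with a similar role, was 349 and 237, and Dpysl3 and Crmp1, of the collapsin response family, were 172 and 114, and 132 and 85.9. Polysialic acid on NCAM keeps young axons loose: its enzyme St8sia2 was 7.78 and 4.22, while the carrier Ncam1 was 103 and 93.4. Stmn2, a neuronal microtubule destabiliser, was 173 and 145. Nrn1, a neurite-promoting factor, was the one listed member with a higher value, at 39.0 and 42.8. Axon guidance genes were closer to level, with a median of -0.10 over 33 of 54 genes. Netrin-1 (Ntn1) was 13.4 and 8.88, whereas the semaphorins Sema5a and Sema6a were 15.9 and 23.1, and 24.4 and 35.0.

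Of 14 tubulin genes 9 passed, 3 higher and 6 lower at P6, with a median of -0.36, and none was called. Tuba1a, the isotype of growing neurons and the most abundant tubulin with its own locus, was 1040 FPKM at P2 and 642 at P6 (-0.70 ± 0.58). Tubb5 was 388 and 259 and Tubb3, the neuronal class III isotype, 263 and 187. Tubb4a, an isotype of myelinating cells and mature neurons, was 34.9 and 56.9 (0.69 ± 0.41), and Tuba4a was 22.8 and 34.0 (0.56 ± 0.54). The P2 and P6 intervals of these 5 genes overlapped. Tubb3, like Nefm, Nefl and Scn1a below, lies at a locus that overlaps another. The joined locus of Tubb2a and Tubb2b was 734 and 500.

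Of the axon cytoskeleton, 21 of 23 genes passed with a median of -0.01, 10 higher and 11 lower. The highest was Thy1, a surface glycoprotein of mature axons, at 21.6 and 38.9 FPKM (0.82 ± 0.43). Nefm and Nefh, the medium and heavy neurofilaments that thicken axons, were 58.8 and 85.6, and 18.3 and 26.9, whereas the light chain Nefl was 184 and 194. Mapt, the microtubule protein tau, was 142 and 86.7 (-0.71 ± 0.61), Uchl1, a neuronal deubiquitinase, 242 and 181, and Map2, of dendrites and the most abundant, 228 and 199. Genes of the node of Ranvier, where sodium channels cluster between myelin segments, had a median of 0.25 over 18 of 24 genes. Nfasc, whose isoforms anchor the node and the paranode, was 29.1 and 66.2, the only node gene at least 2-fold higher (1.16 ± 0.83). Its partner Cntnap1 was 10.2 and 16.9, at a locus that overlaps Ezh1, and the other partner Cntn1 was 91.8 and 93.6. The juxtaparanodal potassium channels Kcna1 and Kcna2 were 4.00 and 6.95, and 9.76 and 14.0.

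Sodium channel genes were level as a list, with a median of -0.05 over 11 of 16, and differed by subunit. The beta subunit Scn2b was 5.03 and 8.64 FPKM, against 35.6 and 24.5 for the early beta subunit Scn3b. Among pore subunits, Scn3a, the embryonic channel, was 27.0 and 19.5, Scn2a1 was 61.7 and 52.5, Scn1a 21.8 and 26.5 and Scn8a, the mature nodal channel, 23.4 and 27.8. No sodium channel gene was called and all intervals overlapped. Potassium channel genes had a median of 0.09 over 31 of 47, from Hcn3 at 12.9 and 8.39 to Kcnj10, and calcium channel genes one of -0.03 over 18 of 21.

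Receptors for inhibitory transmitters held the glycine receptor's alpha subunits at opposite ends. Glra1, the adult subunit, had 11.5 FPKM at P2, 18.4 at P6 and 32.5 by P10, and Glra2, the fetal subunit, 31.2, 21.5 and 11.9, so their order at P10 was the reverse of that at P2. Their log2 ratios from P2 to P6 were 0.64 ± 0.53 and -0.52 ± 0.56, and neither was called. The chloride importer Slc12a2 (NKCC1) was 12.1 and 18.5 and the exporter Slc12a5 (KCC2) 51.9 and 55, a difference whose sign is opposite in the estimated counts. In the list, 27 of 30 genes passed with a median of 0.08. Gabbr1, a subunit of the metabotropic receptor, was the most abundant at 109 and 114, and the GABA-synthesising enzymes Gad1 and Gad2 were 37.8 and 35.8, and 17.6 and 20.6.

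Glutamate receptor genes had a median of -0.08 over 21 of 34 genes. Grin2a, the mature subunit of the NMDA receptor, had the highest ratio, at 11.0 and 15.7 FPKM (0.47 ± 0.89), while Grin2b was 46.8 and 38.4 (-0.28 ± 1.61) and the metabotropic receptor Grm3 had the lowest, at 28.6 and 21.6. Synaptic vesicle genes nearly all passed, 37 of 38, with a median of 0.10 and 23 higher. Snap25, the membrane fusion protein and the most abundant, was 109 and 118. Syt2, the fast calcium sensor of cord synapses, was 24.7 and 38.7 and Vamp1, the cord's main vesicle synaptobrevin, 45.0 and 67.5. Syt4, which lacks fast calcium sensing, was lowest at 56.3 and 32.8 (-0.76 ± 0.42).

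**Figure D4:**
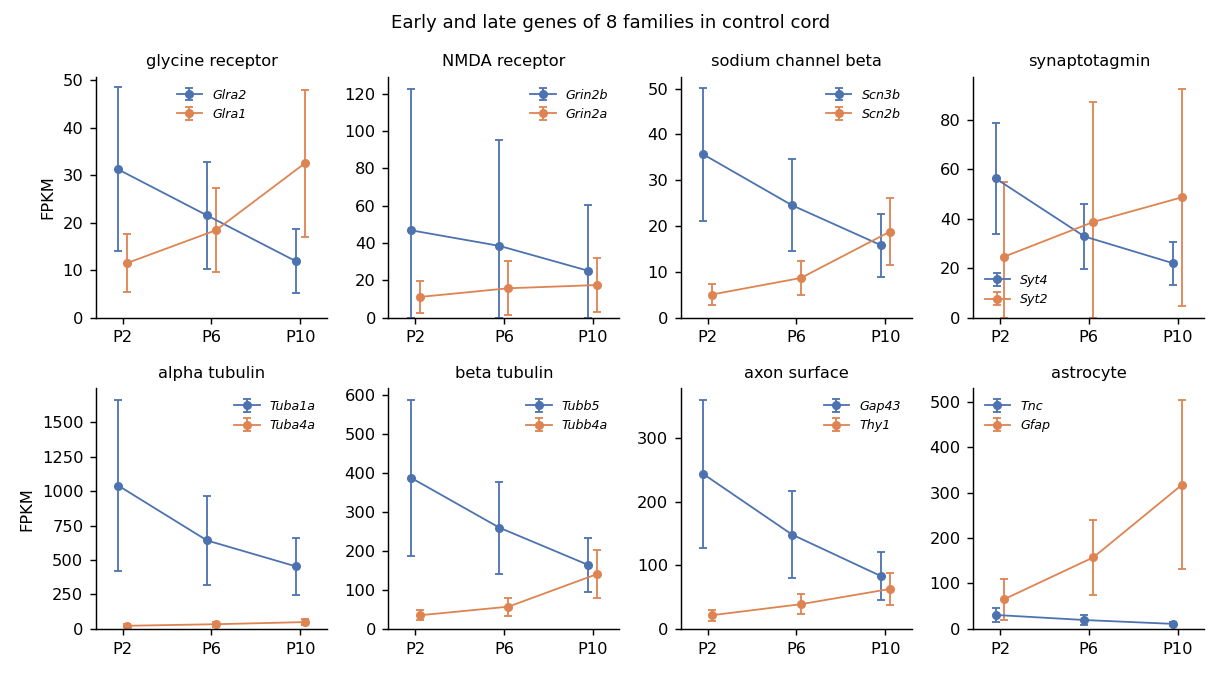
FPKM in control cord at P2, P6 and P10 for an early and a late gene of 8 families, with the authors' intervals as bars; the pairs were chosen after the values were seen. Glra1 and Glra2 cross between P2 and P10, as do Syt2 and Syt4, while the bars at P2 and P6 overlap for every gene drawn.

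Neuron identity genes were mostly lower or level. Motor neuron and cholinergic genes had a median of -0.04 over 15 of 26 genes: Chodl, a marker of fast motor neurons, was 14.2 FPKM at both ages, Prph, a neurofilament of motor and sensory neurons, 27.0 and 21.8, and the choline transporter Slc5a7 9.58 and 11.9. Chat, the acetylcholine-synthesising enzyme, lay below the floor at 1.31 and 2.34. Of 44 transcription factors of spinal neuron classes, 15 passed, with a median of -0.34 and 13 lower. Pou4f1, of dorsal and sensory neurons, was 12.3 and 6.75, Lbx1, of dorsal interneurons, 7.81 and 4.32, and Lmx1b 6.0 and 3.47; 4 of the 15 passed through P2 alone, Lbx1 and Lmx1b among them, and the 11 that passed at both ages had a median of -0.19. Nfia, which also acts in astrocytes, had the highest ratio, at 18 and 25.1. Below the floor 21 of 24 were lower. Neuropeptides had a median of -0.10 over 15 of 27, with Npy at 34.9 and 22.7, Nts at 7.34 and 11.3 and Sst, the most abundant, at 90.6 and 98.0.

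Hox genes, which encode position along the cord, had a median of -0.39 over the 11 of 37 with a locus of their own above the floor. Since 3 of the 11, Hoxc11 and Hoxc12 among them, passed through P2 alone, the 8 that passed at both ages are the fairer description, with a median of -0.25. The lowest ratios were those of genes of the caudal cord. Hoxa10 was 21.8 FPKM at P2 and 8.92 at P6 (-1.20 ± 0.50), Hoxc11 5.73 and 1.90, and Hoxc12 7.72 and 3.23, and these 3 were at least 2-fold lower without passing the test. Hoxd9 was 7.06 and 3.59, Hoxa9 18.2 and 14.3, and Hoxb2, of rostral levels, 8.97 and 6.51. Hoxb8, the most abundant, was 28.7 and 25.5, and Hoxc8, whose locus overlaps Hoxc9, 19.2 and 20.5. At P10 Hoxa10, Hoxc11 and Hoxc12 were 9.17, 1.67 and 1.98. Whether the cords were cut at the same level is not stated in the labels, and the part this plays in other results was not tested.

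Sex-linked genes differed between the groups as well. The Y-linked genes Ddx3y, Kdm5d, Eif2s3y and Uty were 17.9 and 4.92, 10.3 and 2.60, 33.2 and 11.0, and 17.8 and 5.93 FPKM at P2 and P6, and they are 4 of the 10 protein-coding members at least 2-fold lower. A locus that joins Xist, the RNA of the inactive X, with small RNAs was 0.0639 at P2 and 69.8 at P6. The labels give no sex. The X-linked partners Ddx3x, Eif2s3x and Kdm5c were each within 0.10 of 0. Kdm6a, the X-linked partner of Uty, had a log2 ratio of 0.31 and was not called. What the different mix of sexes contributes to other genes was not tested. The remaining 3 protein-coding members at least 2-fold lower were Fam171a2, at 31.0 and 12.2, and 1 locus each of Ece2 and Strbp, with 7.86 and 5.77 estimated fragments at P2. Both symbols also name loci with more fragments, which were 9.44 and 11.3 FPKM for Ece2 and 44.9 and 37.8 for Strbp.

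Genes of growth and protein synthesis were lower by small and even amounts. Of 81 cytosolic ribosomal protein genes 57 had a locus of their own, all above the floor, and 56 of the 57 were lower at P6, against 60.7% of all members. Their median was -0.25 and they lay between -0.49 for Rpl29, at 46.2 and 32.7 FPKM, and 0.01 for Rps15a, at 82.6 and 83.2. Rplp1, the most abundant, was 583 and 483. None was called, and 56 of the 57 differences were smaller than their SE, the exception being Rpl29 with an SE of 0.44. The sign of Rps15a is opposite in the estimated counts. Summed FPKM was 11325, 9592 and 7901 at the 3 ages. Nuclear genes of oxidative phosphorylation were closer to level, with a median of -0.10 over 70 of 78, against -0.06 for all members. Of the 70, 56 were lower, and ratios ran from Ndufb4 at 35.8 and 26.5 to Ndufa13 at 67.3 and 77.6. Summed FPKM of the 70 was 6234, 5916 and 6214 at P2, P6 and P10.

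No cell division gene was called. In the cell cycle list 23 of 64 passed, 10 higher and 13 lower, with a median of -0.10, while 28 of 37 below the floor were higher. Mki67, present in dividing cells, was 3.68 FPKM at P2 and 5.05 at P6, Ccna2 5.98 and 8.05 and Pcna 24.5 and 22.8, while Rfc3, a clamp loader of replication, was 11.0 and 5.62 (-0.86 ± 0.68). Replication-dependent histones had a median of 0.10 over 47 of 64, 35 higher and 12 lower against 39.3% of all members above 0, with Hist1h4d the most abundant at 202 and 208. The fetal growth list had a median of -0.12 over 23 of 32, with the imprinted gene Nnat, a membrane protein of young neurons, at 291 and 196 and Mex3a, an RNA-binding protein of progenitors, lowest at 7.18 and 3.82. Neuronal RNA-binding genes had a median of -0.23 over 29 of 32. The splicing regulators Qk and Mbnl2, at 98.3 and 158 and 10.9 and 18.9, stood above, and the cold-induced Rbm3, at 156 and 109, was lowest.

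Energy, hormone and signalling lists stayed near 0. Glycolysis genes had a median of 0.03 over 22 of 26, with Gapdh at 266 and 270 FPKM, and genes of ketone and fatty acid use one of 0.07 over 15 of 18. Glucocorticoid-responsive genes had a median of 0.13 over 9 of 20, and Klf9, a target shared with thyroid hormone, was 3.64, 5.24 and 12.2 at P2, P6 and P10. Clock genes were at 0.18 over 10 of 19, Notch genes at 0.10 over 9 of 24, Wnt and Shh genes at -0.03 over 9 of 34, and chromatin genes at -0.02 over 22 of 34. Interferon and MHC genes were at -0.05 over 5 of 27, or 0.19 over the 4 that passed at both ages, and perineuronal matrix genes at -0.13 over 8 of 18. Immediate early genes were mostly below the floor, with Jun at 7.23 and 7.58. Collagen and meningeal genes had a median of 0.22 over 21 of 39, with Fn1, fibronectin, at 13.4 and 21.6 and Dcn at 13.7 and 21.8.

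Markers of tissue next to the cord were read in the same way. Schwann cell genes had a median of 1.00 over 6 of 17, a list that shares members such as Mal and Pmp22 with the myelin list. Pmp22, a membrane protein abundant in peripheral myelin, was 23.2 FPKM at P2 and 62.4 at P6 (1.39 ± 0.46). Prx, specific to Schwann cells, lay below the floor at 2.57 and 4.23. The locus that joins Pmp2, another Schwann marker, with Fabp9 and a predicted gene was 2.89 and 9.15, and it was not called. The part of Schwann cell genes in the myelin result was not tested. Sensory ganglion genes had a median of 0.00 over 8 of 23, and Calca was 9.73 and 12.1. Red cell genes were at 0.24 over 9 of 22, with Hba-a1 at 342 and 443. Of 24 muscle genes 1 passed, Acta1 at 5.67 and 3.58, of 20 cartilage and bone genes 3, and of 13 brown fat genes and 28 motile cilia genes 1 each. The forebrain markers Emx1 and Tbr1 were 0.0945 and 0.173 FPKM at P2 and 0.0483 and 0.252 at P6, against 109 and 118 for the neuronal gene Snap25.

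Levels in SMA cords at the same ages are set beside these values. In the 29 myelin structure genes the median SMA log2 ratio from P2 to P6 was -0.48, with 7 genes higher and 22 lower at P6. At P6 the SMA levels were near the control ones: Mbp was 1130 FPKM against 1012 and Mag 99.6 against 92.4. At P2 they were 1840 against 149.6 for Mbp and 145 against 11.1 for Mag, with SMA P2 intervals that reached down to 0 for both genes. Pmp22 was 29.7 in SMA at P2 and 76.6 at P6. Over the neurogenesis list the SMA median was -0.09, with 20 of 35 lower, and Dcx was 35.6 and 19.8. Ribosomal protein genes were lower at P6 in 56 of 57 in SMA cords too, with a median of -0.15. Both genotypes have their own cords at P2 and P6, so the control and SMA values share no library.

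**Figure D5:**
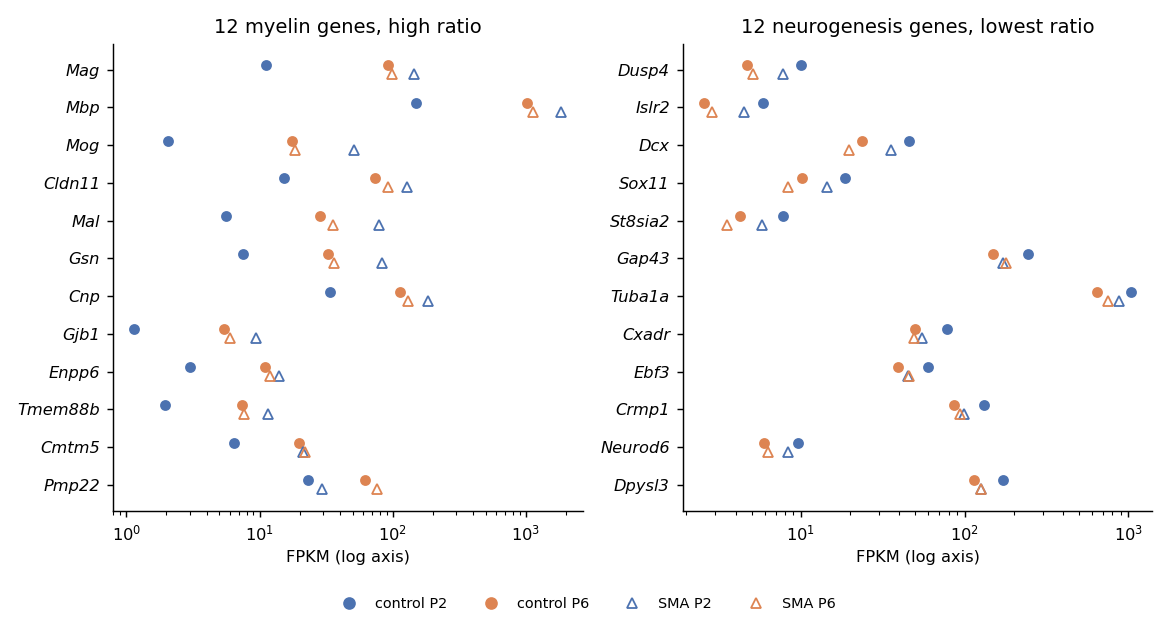
FPKM on a log axis in control (filled circles) and SMA (open triangles) cords at P2 (blue) and P6 (orange), for 12 myelin genes of high and the 12 neurogenesis genes of lowest control ratio. At P6 triangles and circles lie close together, as for Mbp at 1130 and 1012, whereas at P2 the myelin triangles lie to the right of the circles, by the least for Pmp22 at 29.7 and 23.2.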

How the data were processed

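RNA was extracted from whole cords, depleted of ribosomal RNA and made into stranded libraries, per the labels' protocols. The submitters' processing notes name GRCm38, Cuffdiff, Cufflinks 2.2.1, TopHat2 2.1.1, FastQC, Bowtie2 2.2.4 and Picard; their settings and annotation are not given in the sources used here. The authors' deposited tables hold FPKM with an interval, and estimated counts of fragments with a variance, as 1 value per group. Estimated fragments totalled 6881671 at P2 and 6982301 at P6. No replicate values were used, so the error is the authors' model interval, read as 95%, and depth per library is unknown. Whether libraries are separate animals is not stated; p-values measure only this modelled spread.

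From these, Python 3.11.15 (numpy 2.4.6, pandas 2.3.3, scipy 1.17.1) computed log2 ratios with a pseudocount of 1, and z tests without a pseudocount. The z tests covered loci with FPKM 1 or more in at least 1 group, above 0 in both. The SE was the upper bound minus FPKM, over 1.96. The z values had a robust SD of 0.311, narrower than a standard normal. The test was tested on simulated data. The simulated errors were drawn from the P2 intervals with large ones capped, so this cannot show whether the intervals fit these data. Members and the 49 gene lists were chosen with earlier results of these data known, and lists received no test. Named genes were list genes, with each list's most abundant and most different members first, the 15 highest and lowest protein-coding ratios, and called genes; predicted genes were counted only. Fmnl1, Btg1 and Gins2 were named as the values nearest the floor. Gene types and coordinates came from GENCODE M21 (GRCm38), where 8432 of 8655 members matched. Genes that share a locus with others have no value of their own, and overlapping genes cannot be told apart where the strand setting is unknown. Some genes are not reported here.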

Additional observations from a re-analysis of the deposited data

Results flagged for a closer look

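The change from P2 to P6 differed between control and SMA cords for 2 named genes when the log2 ratios were set against each other in a z test (two-sided, adjusted over 18362 loci), a test chosen after seeing the data. Ermn was 0.438 FPKM at P2 and 3.93 at P6 in controls, and 8.09 and 4.22 in SMA. Without the added 1 its change was 3.17 in controls and -0.94 in SMA. The control change minus the SMA change was 4.11, past the adjusted threshold of 0.05. With 1 added, the control change of Ermn was 1.78, and its control P2 level rested on 14.5 estimated fragments. Mal was 5.62 and 28.5 in controls and 78.6 and 35.4 in SMA, a difference of 3.49 without the added 1, also past the threshold. In both genes SMA at P2 had the highest level of the 4 groups. The test called 7 loci in all, and the other 5 were predicted small RNAs; 69 loci had an unadjusted p under 0.05.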

How the results depend on the processing

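Of the 22 loci called, a z test on the estimated counts called 12, all higher and 10 of them shared; the Mobp locus and all 9 protein-coding genes were among the shared. Testing single-symbol protein-coding genes only called 9, and intervals that do not overlap gave 54, with 44 higher and 10 lower. The SE from both interval sides gave 24, with all 22 shared, and a floor of FPKM 5 gave 22, with 20 shared, since Ermn and Nipal4 are not tested there; no floor gave 22. Members at least 2-fold higher or lower numbered 182 and 126 with a floor of FPKM 1, and the lower ones 24 by the ratio of counts. Protein-coding members higher by 2-fold were 41, 23 with a pseudocount of 5 and 66 with a floor of FPKM 1. Those lower were 10, and 5 and 16 under the same settings, 18 by counts and 3 without the Y-linked and Hox genes, an alternative chosen after seeing the data, as was a mean FPKM of 5 as floor. Centring on the members' median put 50.0% of members above 0 in place of 39.3%, and moved 7 list medians across 0. Of 392 values computed for list medians under alternatives, 4 moved by more than the median SE of their genes. These were complement, to 0.96 at FPKM 10, Schwann, to 0.42, and brown fat, to -0.45, at FPKM 1, and sex-linked, to 0.034 without overlapping loci. In a few settings no gene of a list remained, so the value computed is not a list median. This holds for muscle at FPKM 10, at a mean FPKM of 5 and without overlapping loci, and for brown fat at FPKM 10. Sign changed in 26, a count that includes brown fat at FPKM 10. The causes were not tested. Of 3396 gene ratios under alternatives, 97 changed sign.

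No paired analysis was possible because the columns hold 1 combined value per group and carry no replicate numbers. The sample titles number the libraries and the labels name a table by replicate, which was not used here; for the same reason leaving out a library was not run. The small RNA calls rest on at most 1.83 estimated fragments, and most single genes could not be told apart from no change with these intervals.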
